A study of Rattus norvegicus with 6 samples.

Results

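The genes of the mitochondrial respiratory chain were examined in rat pancreatic islets before and after birth. Members were all rows of the deposited expression table whose names start with Nduf, Sdha to Sdhd, Uqcr, Cox4 to Cox8, Atp5 or Mt-, together with Cyc1 and Cycs. The rule used names only and found 107 of the 18625 named genes, of which 79 encode structural subunits in the nucleus, 11 encode assembly factors, 4 belong to neither class and 13 lie on the mitochondrial genome. The structural nuclear genes were grouped by complex, with 35 in complex I, 4 in complex II, 8 in complex III, 1 for cytochrome c, 15 in complex IV and 16 in complex V.

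Total RNA from freshly isolated islets of Rattus norvegicus was sequenced after removal of ribosomal RNA, with 3 libraries from fetuses at embryonic day 19 and 3 from pups whose titles all read 2 weeks. The age field of those 3 postnatal libraries instead names postnatal weeks 2, 3 and 4. No treatment or genetic change is given for either group, and the sources used here give no strain, sex or number of animals per library. Apart from those ages, the labels do not say whether the libraries of a group stem from different animals. The p-values therefore reflect the variation among these 6 libraries alone, part or all of which could be technical. Should the age field hold, the 3 postnatal libraries differ in age and their spread includes that.

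The respiratory chain sits in the inner mitochondrial membrane. Complexes I and II take electrons from NADH and succinate and hand them to coenzyme Q, complex III passes them on to cytochrome c, and complex IV delivers them to oxygen. Complexes I, III and IV pump protons as they do so, and complex V, the ATP synthase, makes ATP from the proton gradient. Most subunits are encoded in the nucleus and imported, while a small core is encoded by mitochondrial DNA, so each complex except II is built from both genomes. In the beta cell of the islet, ATP made this way closes potassium channels and triggers insulin release.

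The nuclear subunit genes were lower after birth in every complex, whereas in the deposited scaling the mitochondrially encoded ones were near their fetal level. Levels are given as scaled CPM, reads scaled to a common library size after an adjustment between libraries, and changes as log2 fold changes of the scaled CPM plus 1 ± SE. Of 79 structural nuclear genes 73 passed the filter on low values, and 69 of them fell and 0 rose (limma, Benjamini-Hochberg adjusted p under 0.05 over 12926 genes). In the table as a whole 63.1% of the genes tested were called, 33.1% as lower and 30.0% as higher after birth. No structural gene was higher at an unadjusted p under 0.05 with limma or with edgeR on recovered reads, and DESeq2 called 1 higher, Ndufa1 (0.42). The median change of the 73 genes was -0.92, a postnatal level of 52.9% of the fetal one, beside -0.03 over all genes tested. In 69 of the 73 genes tested, every postnatal library was below every fetal library, an arrangement found for 36.9% of all genes tested. These were the same 69 genes that were called. The call and the arrangement rest on the same values, so the second adds no separate evidence. Of the 13 mitochondrially encoded genes 1 fell and 0 rose, also at an unadjusted p, and their median change was -0.05 as deposited, a value that moved with single libraries and with the scaling, as given below.

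**Figure D1:**
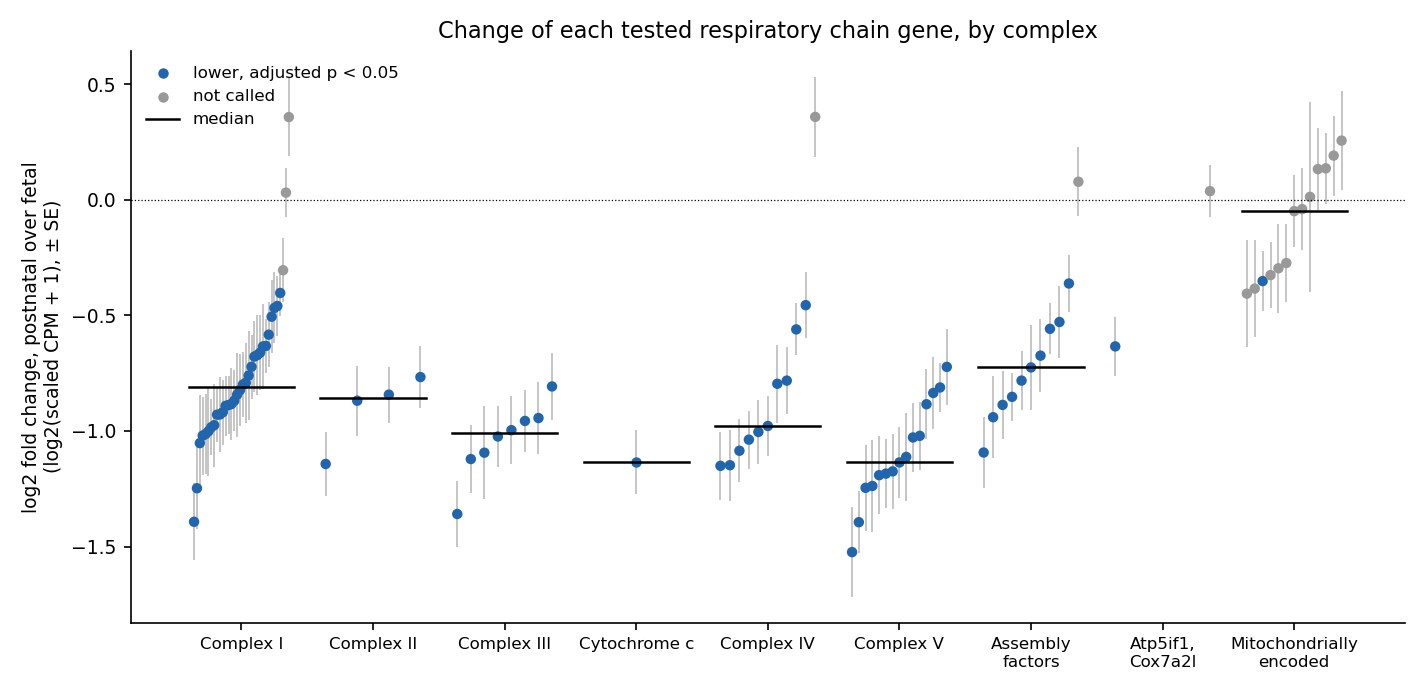
Log2 fold change (postnatal over fetal, ± SE) of each of the 99 members tested, by complex or class, with the median of each group as a black line and genes called lower in blue. Nuclear subunit genes lie mostly between -0.40 and -1.52, and 12 of the 13 mitochondrially encoded genes were not called.

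Islet preparations hold several cell types, and fewer cells of a type and less RNA per cell cannot be told apart in such bulk RNA. Depth was 26.1 to 37.8 M reads per library. The 6 hormone genes that define islet cells were all present, with summed levels of 2023 to 5602 in fetal and 59968 to 110913 in postnatal libraries. Of 14 acinar marker genes in the table, which mark the enzyme-secreting cells around the islets, 10 rose. Together the 14 took 5.81% to 7.78% of fetal reads and 18.0% to 35.6% of postnatal reads, the highest share being that of postnatal replicate 1. In every library the acinar share was above the hormone share. Fetal replicate 2 stood apart in liver transcripts, with a summed level of 8095 over 10 hepatic markers beside 249 to 377 in the other 5 libraries. Other cell types moved with age as well: of the markers tested 5 of 6 mesenchymal ones rose (summed levels 1689 to 2509 and 6830 to 12101) and 5 of 7 erythroid ones fell (146 to 324 and 18.6 to 30.5). The part of any of these in the changes below was not tested. Without both of these libraries 68 of the 73 structural genes fell, with a median of -0.98.

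Because the nuclear genes moved together, their promoters were read for the motifs of factors known to act on respiratory genes. RefSeq (rat assembly GRCr8) gave a window from 250 bases before to 50 after the start of the gene for 67 of the 79 structural genes. The core of the NRF1 site, taken as GCGCA and GCGC with any base between them, was found on either strand in 14 windows (20.9%), against 4.71% of all 27457 windows of this length. CCGGAAG, bound by GABP (also called NRF2), was in 19 (28.4%) against 9.22%, and AAGATGG, the core of a YY1 site, in 16 (23.9%) against 7.30%. TATAAA was in 6 (8.96%) against 14.3%. The windows of the subunit genes also had a median GC content of 56.3%, beside 52.3% for all windows. The 150 bases before the start are shown for 3 genes that fell and 1 that did not, with matches in capitals. Each of the stretches shown holds a match, which is not so for every gene that fell. The windows of Atp5f1b, Ndufab1 and Cycs, which fell, held none of the NRF1, GABP or YY1 letters. Sdha (chr1:30764403-30764552, plus strand) has the NRF1 letters beginning 89 and 46 bases before the start. A further NRF1 match of Sdha begins 1 base before the start, runs past the bases shown and is not in capitals. Uqcrc2 (chr1:184599090-184599239, plus strand) has the GABP letters on the reverse strand at 117 and 28 and the YY1 letters, also reversed, at 19. Cox5b (chr9:46417687-46417836, plus strand) has the GABP letters at 14. Ndufv3 (chr20:9613636-9613785, plus strand), whose level did not pass the test, has the NRF1 letters at 39.
Sdha: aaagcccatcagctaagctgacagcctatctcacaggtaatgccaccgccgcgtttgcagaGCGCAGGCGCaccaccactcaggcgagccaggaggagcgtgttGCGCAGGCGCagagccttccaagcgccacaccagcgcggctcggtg
Uqcrc2: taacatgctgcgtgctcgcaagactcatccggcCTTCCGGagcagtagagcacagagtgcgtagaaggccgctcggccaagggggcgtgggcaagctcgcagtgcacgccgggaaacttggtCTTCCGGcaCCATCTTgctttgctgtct
Cox5b: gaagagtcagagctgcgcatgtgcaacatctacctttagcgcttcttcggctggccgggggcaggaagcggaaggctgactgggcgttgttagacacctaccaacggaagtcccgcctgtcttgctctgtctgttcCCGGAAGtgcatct
Ndufv3: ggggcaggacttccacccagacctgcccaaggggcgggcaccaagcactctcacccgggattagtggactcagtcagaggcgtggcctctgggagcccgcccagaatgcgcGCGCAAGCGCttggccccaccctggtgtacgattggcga
Among the 59 windows of genes that fell, 12 held the NRF1 letters, 18 the GABP letters and 15 the YY1 letters. Of the 3 windows of genes tested and not called, 1 held the NRF1 and 1 the GABP letters. A match describes these letters only and shows no binding.

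Complex I, the NADH dehydrogenase, has a core that carries out electron transfer and a shell of accessory subunits. All 7 nuclear core genes fell, with a median of -0.80, and so did 24 of 27 accessory genes tested, with a median of -0.82. Among the core, Ndufs1, which carries iron-sulfur clusters, was at 149.6, 168 and 184 in fetal replicates 1, 2 and 3 and at 99.1, 78.9 and 92.0 in postnatal replicates 1, 2 and 3. The groups did not overlap, and Ndufs1 fell by 0.89 ± 0.12 (limma, Benjamini-Hochberg adjusted p = 5.90e-04). Smaller changes were measured for Ndufv1, which binds NADH through its flavin (-0.46 ± 0.13), and for Ndufs7, which holds the last cluster before coenzyme Q (-0.40 ± 0.10).

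The widest spread lay among the accessory subunits. Ndufab1, an acyl carrier protein that also serves mitochondrial fatty acid synthesis, was at 58.6, 66.2 and 74.8 before birth and at 31.1, 20.4 and 23.4 after it. Every postnatal value was below every fetal one, and the gene fell by 1.39 ± 0.17 (limma adjusted p = 3.07e-04). Ndufa12 fell by 1.25 ± 0.18 and Ndufb4 by 1.05 ± 0.21. At the other end, Ndufv3, a small subunit beside the NADH site, was at 43.0, 51.4 and 51.1 in fetal and 50.6, 46.3 and 51.5 in postnatal libraries. Its groups overlapped, with a change of 0.03 ± 0.11 (limma adjusted p = 0.814). Ndufa1, a membrane-anchored subunit encoded on the X chromosome, was at 30.3, 36.6 and 38.9 and then at 57.0, 37.1 and 43.9. Its change of 0.36 ± 0.17 was not called (limma adjusted p = 0.101), and its highest value was that of postnatal replicate 1. Ndufb2 changed by -0.30 and was not called either (limma adjusted p = 0.0863). Ndufa4, named for complex I and since placed in complex IV, fell by 1.01 ± 0.17.

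Complex II, succinate dehydrogenase, is also an enzyme of the tricarboxylic acid cycle and has no mitochondrially encoded subunit. Its 4 genes all fell, with a median of -0.86. Sdha, the flavoprotein that oxidises succinate and whose promoter is shown above, was at 224, 269 and 282 in fetal and at 170.3, 127 and 128 in postnatal libraries. No postnatal value reached the fetal range, and Sdha fell by 0.87 ± 0.15 (limma adjusted p = 0.00167). Sdhb, the iron-sulfur subunit, fell by 0.77 ± 0.13, and the membrane anchors Sdhc and Sdhd by 0.84 ± 0.12 and 1.14 ± 0.14.

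In complex III, the cytochrome bc1 complex, all 8 nuclear genes fell, with a median of -1.01 and a range of -0.81 to -1.36. Cyc1, which encodes cytochrome c1 with its heme, had the lowest value and Uqcrc2, a core protein, the highest. The 2 groups of Cyc1 were far apart, at 132, 157 and 169 and at 69.7, 51.6 and 55.5. Uqcrfs1, the Rieske iron-sulfur protein, fell from 199 ± 24.0 to 97.0 ± 11.2 (-1.02 ± 0.13), and the core protein gene Uqcrc1 from 209 ± 19.6 to 105 ± 19.5, which is 50.3% of the fetal mean. Cycs, the mobile electron carrier cytochrome c, was at 159, 175 and 210.2 in fetal and at 87.9, 70.6 and 87.0 in postnatal libraries. The groups were separate and Cycs fell by 1.14 ± 0.14 (limma adjusted p = 3.43e-04).

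Of the 15 complex IV genes 11 were tested, and 10 fell, with a median of -0.98. This complex, cytochrome c oxidase, is the one with tissue-specific subunit isoforms. Cox5b, a zinc-binding subunit, was at 106, 141 and 139 and then at 63.4, 49.5 and 58.4, with no overlap, and fell by 1.15 ± 0.15. Falls of similar size were measured for Cox5a (-1.09 ± 0.14), Cox6a1 (-1.04 ± 0.13) and Cox6b1 (-0.98 ± 0.13). Cox4i1, the common form of the largest nuclear subunit, changed less, from 207, 252 and 251 to 203, 153 and 162. Its highest postnatal value, in replicate 1, lay next to its lowest fetal one, and its call (-0.46 ± 0.14; limma adjusted p = 0.0230) was lost under 7 of the 22 alternative analyses. Cox8a also fell less than the median, by 0.56 ± 0.11. Cox7a2l2, whose postnatal mean was 49.3% of the fetal one, is listed by RefSeq beside the like-named Cox7a2, and Ndufa10l1 of complex I (-0.87 ± 0.13) beside Ndufa10. The rule found no row named Cox7a2 or Ndufa10, and how reads were assigned between such copies is not known.

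The other isoforms of complex IV did not share one direction. Cox4i2, a form known from lung and from pericytes, the contractile cells around capillaries, was at 4.67, 5.35 and 3.36 in fetal and at 5.37, 6.30 and 6.11 in postnatal libraries. All postnatal values were above the fetal ones, by a small margin, and the change of 0.36 ± 0.17 was not called (limma adjusted p = 0.106). The log2 ratio of Cox4i2 to Cox4i1 went from -5.46 ± 0.35 to -4.64 ± 0.32 (SD, n = 3 each), a difference of 0.81. A two-sided exact permutation test gave p = 0.1, the smallest that 3 libraries against 3 allow, and 0.2 after Benjamini-Hochberg adjustment over 4 isoform pairs. All 8 pericyte markers rose over the same comparison, with summed levels of 174 to 259 and 429 to 700. Their part in the Cox4i2 values was not tested. Cox6b2, known as the testis form, fell by 1.15 ± 0.15, from 7.18, 6.32 and 7.55 to 2.13, 2.82 and 2.94, with separate groups. The testis markers Tnp1 and Prm1 were at 0 in all 6 libraries.

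Among the isoforms of heart and skeletal muscle, Cox6a2, Cox7a1 and Cox8b were below the filter and were not tested. Cox7a1 was at 0.829, 0.799 and 0.832 in fetal and at 0.304, 0.379 and 0.444 in postnatal libraries, all fetal values being higher. Cox8b was at 0, 0.0242 and 0.0308 and then at 0.253, 0.172 and 0.341, where 3 reads correspond to between 0.0726 and 0.152 scaled CPM. Cox6a2 was at 0.0776 ± 0.0663 and 0.215 ± 0.165. The summed level of 9 skeletal and heart muscle markers was 1.84 to 3.78 in fetal and 8.45 to 11.4 in postnatal libraries. That of 6 markers of brown and white fat, where Cox7a1 and Cox8b are also known, was 8.75 to 22.8 and 75.0 to 283, with the brown fat marker Ucp1 at 0.0688 or less in every library. The part of either in these values was not tested. Ndufa4l2, a paralog of Ndufa4 known to be induced by hypoxia and to mark pericytes, was likewise too low to test, at 0.123, 0.266 and 0.185 and then at 0.557, 1.17 and 1.02, with all postnatal values higher. Of the remaining members not tested, Atp5md was at 0.579 ± 0.271 and 0.535 ± 0.243, and Ndufs6, Cox8c and Cox6c-ps1 were listed at 0 in every library. The annotation and read counter are not given, so such a 0 cannot be told apart from reads that were not counted.

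**Figure D2:**
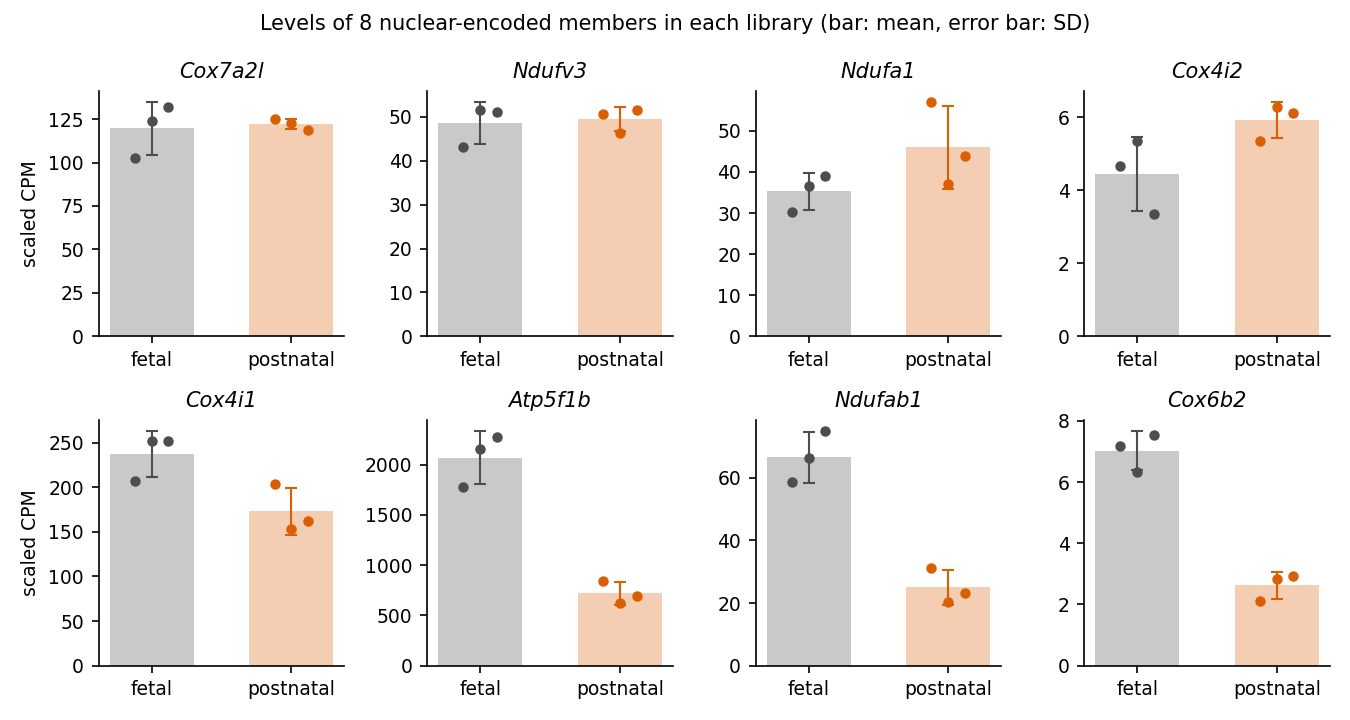
Scaled CPM of 8 nuclear-encoded members in each of the 3 fetal and 3 postnatal libraries, with the mean as a bar and the SD as an error bar. The groups of Cox7a2l, Ndufv3 and Ndufa1 overlap, those of Cox4i2 and Cox4i1 lie side by side, and those of Atp5f1b, Ndufab1 and Cox6b2 are well apart.

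Complex V, the ATP synthase, joins a catalytic F1 head to a membrane rotor, Fo, by stalks. All 15 genes tested fell, with a median of -1.14 and a range of -0.72 to -1.52. The 5 genes named Atp5f1, which include genes of the central stalk as well as of the head, and the 10 others tested both had a median of -1.14. Atp5f1b, the catalytic beta subunit, was at 1775, 2154 and 2277 in fetal and at 845, 625 and 691 in postnatal libraries. Its postnatal mean was 34.8% of the fetal mean, the lowest ratio among the members tested, and it fell by 1.52 ± 0.19 (limma adjusted p = 3.94e-04). Its partner in the head, the alpha subunit gene Atp5f1a, fell by 1.19 ± 0.17. The smallest falls were those of Atp5f1e (-0.72 ± 0.16) and Atp5f1d (-0.81 ± 0.11), which encode the small epsilon and delta subunits of the central stalk, and of the membrane subunit gene Atp5mg (-0.84 ± 0.16).

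The c-ring that turns in the membrane is built from 1 mature protein encoded by 3 genes. Atp5mc3 was at 184, 218 and 233 and then at 90.2, 69.7 and 79.9, and fell by 1.39 ± 0.13 (limma adjusted p = 1.24e-04). Atp5mc1 fell by 1.24 ± 0.20 and Atp5mc2 by 1.02 ± 0.15. The log2 ratio of Atp5mc3 to Atp5mc2 went from -0.13 ± 0.03 to -0.50 ± 0.11 (SD, n = 3 each), with separate groups, a difference of -0.37 (two-sided exact permutation p = 0.1, adjusted 0.2). For Atp5mc1 to Atp5mc2 the difference was -0.22 (exact permutation p = 0.2, adjusted 0.267), and for Cox6b2 to Cox6b1 it was -0.17 (exact permutation p = 0.5, adjusted 0.5). Atp5if1, which encodes the inhibitor that stops the enzyme from running backwards and hydrolysing ATP, fell by 0.63 ± 0.13, from 60.2, 75.7 and 76.7 to 43.1, 42.1 and 50.4.

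The assembly factors within the rule were mostly lower after birth too. All 7 complex I factors fell, with a median of -0.85 and Ndufaf5, which modifies a core subunit, lowest at -1.09 ± 0.16. Of 4 complex II factors 3 fell, with a median of -0.54. Sdhaf1, needed for the iron-sulfur subunit of complex II, was at 3.44, 3.75 and 3.48 and then at 4.00, 3.17 and 4.34, overlapping values that changed by 0.08 ± 0.15 and were not called (limma adjusted p = 0.668). Cox7a2l, which helps join complexes III and IV into supercomplexes, was at 103, 124 and 132 in fetal and 125, 123 and 119 in postnatal libraries. These groups overlapped as well, with a change of 0.04 ± 0.11 (limma adjusted p = 0.789).

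All 13 protein genes of the mitochondrial genome were measured. They encode 7 subunits of complex I, cytochrome b of complex III, 3 subunits of complex IV and 2 of complex V. Mt-co1, the catalytic subunit of complex IV, was at 6776, 8188 and 8800.0 in fetal and at 7005, 8714 and 8207 in postnatal libraries. The groups overlapped fully, with a change of 0.01 ± 0.41 (limma adjusted p = 0.982). The SE was the widest of the 13, but limma draws each SE toward a trend over expression level. It therefore does not rank the genes by their spread between libraries. The fetal SD was 1038 on a mean of 7921 for Mt-co1 and 23.2 on a mean of 101 for Mt-nd2. Mt-cyb was at 361, 308 and 358 and then at 484, 392 and 313 (0.19 ± 0.17; limma adjusted p = 0.36). Among the complex I genes, with a median of -0.30, values ran from -0.41 ± 0.23 for Mt-nd2 to 0.26 ± 0.22 for Mt-nd4, and none was called. Mt-atp8 was at 83.0, 70.3 and 89.9 and then at 68.4, 66.2 and 55.1, the only one of the 13 whose groups did not overlap. It fell by 0.35 ± 0.13 (limma adjusted p = 0.0441), and it shares bases with Mt-atp6 (-0.27 ± 0.17; limma adjusted p = 0.185), so reads may have been divided between them. Mt-nd4l and Mt-nd4 overlap in the same way, and Mt-nd6 lies on the opposite strand, where the strand setting of the counting, not given in the sources used here, matters.

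The count of mitochondrially encoded genes that fell was sensitive to single libraries and to the scaling. It was 5 without postnatal replicate 1, 3 without fetal replicate 2, 5 without both and 0 when any of the other 4 libraries was left out. With equal library totals it was 6, and with the 20 highest genes left out of the scaling it was 0, while Mt-co3, Mt-cyb and Mt-nd3 were called higher. The median change of the 13 genes was -0.18 without postnatal replicate 1, -0.16 without fetal replicate 2, -0.30 without both, -0.40 with equal totals and 0.19 with the 20 highest genes left out. Under each of these settings the median of the nuclear subunit genes was lower than theirs, by 0.68 to 0.88 on the log2 scale.

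**Figure D3:**
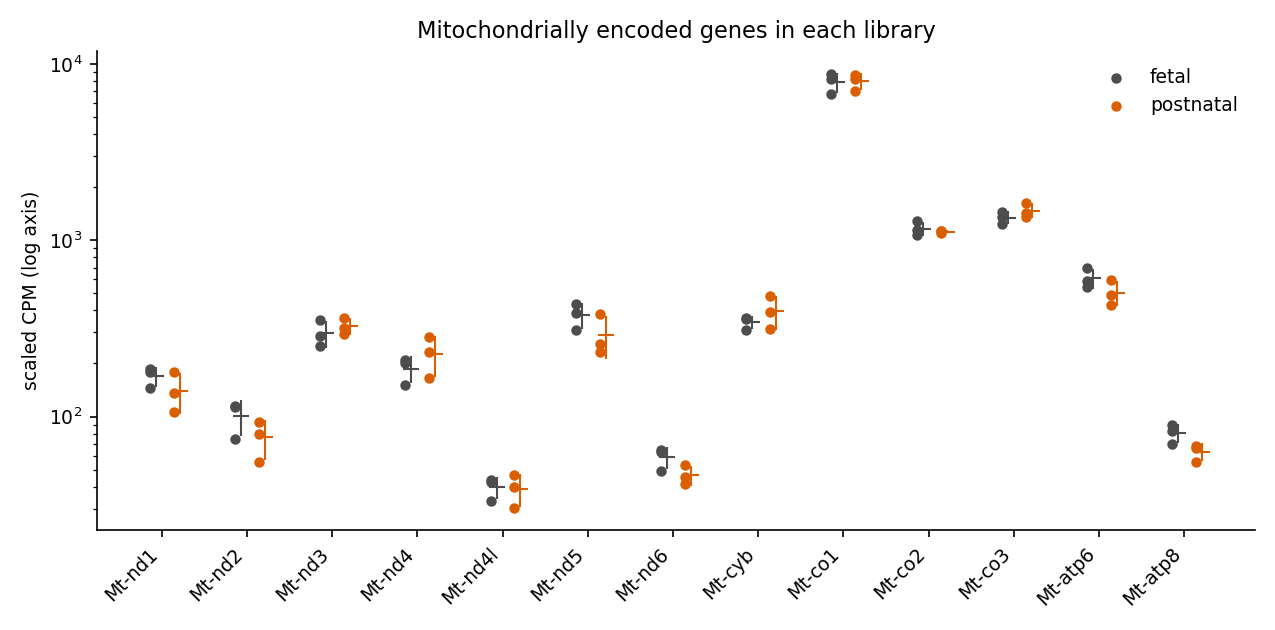
Scaled CPM (log axis) of the 13 mitochondrially encoded genes, with 1 point per library and the mean ± SD of 3 fetal (grey) and 3 postnatal (orange) libraries. Points of both groups overlap for every gene but Mt-atp8.

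The 2 genomes were then set side by side within each library, a comparison that no scaling between libraries can alter. Structural nuclear genes took 1.26% ± 0.0670 of all reads before birth and 0.482% ± 0.0521 after it (SD, n = 3 each), and the mitochondrially encoded genes 1.43% ± 0.0600 and 1.15% ± 0.285. Wilson 95% intervals reached at most 0.00457 percentage points from a single library's share and cover counting error only. A share of all reads also falls when other genes take more of them. The 14 acinar markers took 5.81% to 7.78% of fetal reads and 18.0% to 35.6% of postnatal reads. Such dilution cancels in a ratio between the 2 genomes. A change in the mix of cell types need not cancel, and its part in the ratios was not tested. Sums weigh the highest genes most. Of the fetal mean level, Mt-co1 made up 7921 of 12691 for the mitochondrially encoded genes, and complex V 5254 of 11226 for the nuclear ones. The ratio of nuclear to mitochondrially encoded reads, which takes no account of gene length, was 0.832, 0.925 and 0.892 in fetal and 0.514, 0.358 and 0.426 in postnatal libraries. Every postnatal ratio was below every fetal one. The same held within each complex that has subunits from both genomes. For complex I the ratio went from 2.24 ± 0.408 to 1.39 ± 0.165, for complex III from 3.39 ± 0.603 to 1.46 ± 0.242, for complex IV from 0.121 ± 0.00361 to 0.0679 ± 0.0125 and for complex V from 7.67 ± 1.15 to 3.85 ± 0.464.

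Single libraries also shifted the nuclear genes as a block. Relative to the fetal mean, the median of the 73 tested subunit genes was -0.22, 0.05 and 0.19 in fetal replicates 1, 2 and 3 and -0.72, -1.07 and -0.93 in postnatal replicates 1, 2 and 3. In the deposited scaling, 71 of the 73 genes were lowest in fetal replicate 1 among the fetal libraries, and 64 were highest in postnatal replicate 1 among the postnatal ones. With equal totals the latter turned around, and 67 of the 73 were lowest in postnatal replicate 1. That library also had the highest acinar share of reads and is the one whose age field names postnatal week 2. The part of either in the order of the postnatal libraries was not tested.

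**Figure D4:**
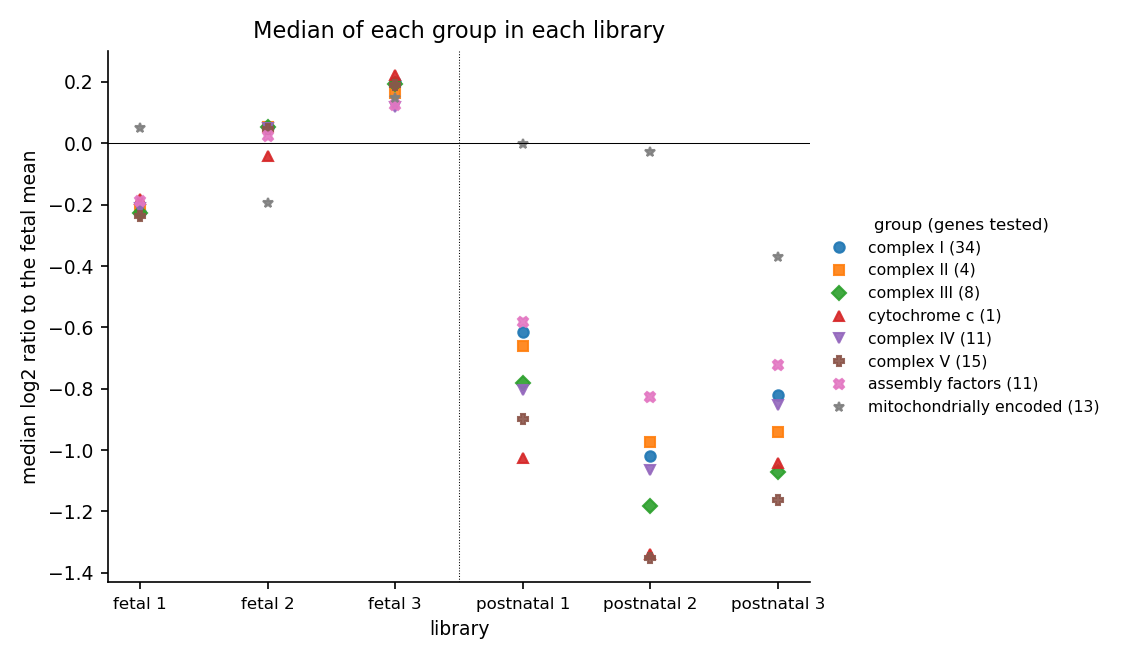
Median log2 ratio to the fetal mean of the tested genes of each complex or class, in each of the 6 libraries. Nuclear groups lie at or below -0.58 in the 3 postnatal libraries, whereas the mitochondrially encoded genes lie between -0.37 and 0.15 throughout.

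The size of the fall depended on how libraries were scaled, as did the median of all genes. The median of all genes tested was -0.36 with equal totals, 0.10 with upper quartile scaling and 0.20 with the 20 highest genes left out, and that of the 73 nuclear subunit genes was -1.26, -0.79 and -0.68. Relative to all genes the subunit genes were thus at -0.91, -0.89 and -0.88, beside -0.89 as deposited. The number that fell was 70, 67 and 64. With the 20 highest genes left out, Ndufa1 (0.59), Ndufv3 (0.27), Cox4i2 (0.56) and Cox7a2l (0.28) were called higher, and with upper quartile scaling Ndufa1 was (0.49). Of the 69 subunit genes that fell, 63 were called in each of the 22 alternative analyses and all 69 had a negative change in each. The 6 that lost the call in some were Cox4i1, Ndufa13, Ndufa7, Ndufb3, Ndufs7 and Ndufv1.

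**Figure D5:**
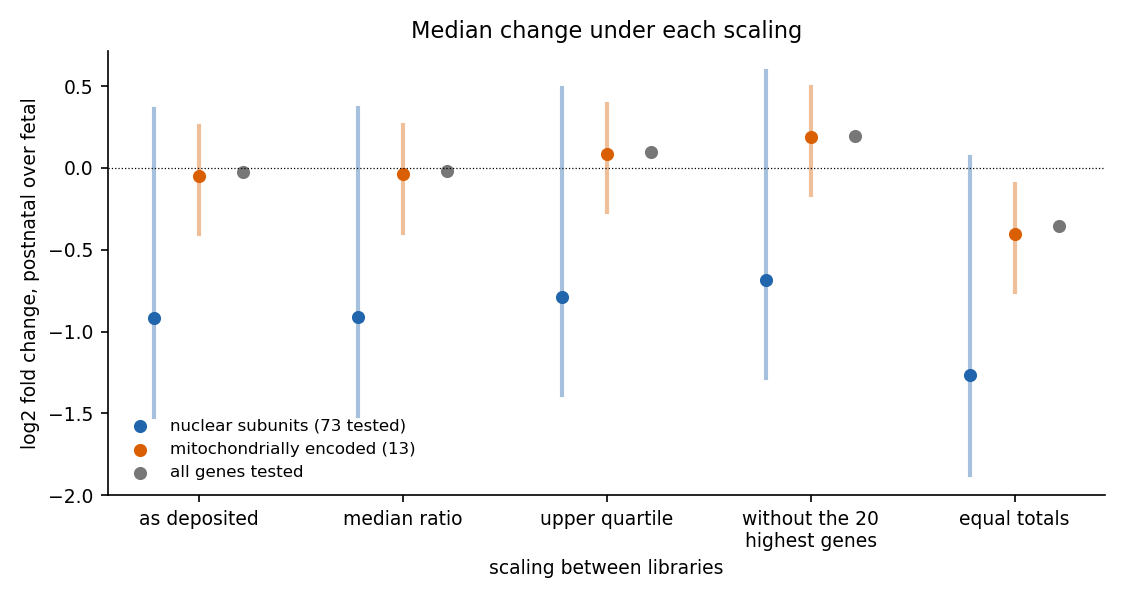
Median log2 fold change (points) and range over genes (bars) of the 73 nuclear subunit genes and the 13 mitochondrially encoded genes under 5 scalings between libraries, with the median of all genes tested in grey. The nuclear median lies between -0.68 and -1.26 and below the other medians under each scaling.

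Other genes of the pathway were read from lists of known function. Of 33 further assembly factors 22 fell and 0 rose (1 was higher at an unadjusted limma p under 0.05, and 1 by DESeq2), with a median of -0.59. Coa7 (-1.44 ± 0.19) and Cmc2 (-1.26 ± 0.15), both needed for complex IV, were lowest, and Higd1a, a complex IV factor induced by hypoxia, was highest (0.38 ± 0.16; limma adjusted p = 0.0653). It was not called as deposited and was called higher under 5 alternative analyses, with upper quartile scaling (0.51), without the 20 highest genes (0.61), with the week as a covariate (0.38), without postnatal replicate 2 (0.51) and with DESeq2 (0.46). Of 24 genes that copy mitochondrial DNA or make and process its transcripts, 16 fell and 0 rose, with a median of -0.56. None was higher at an unadjusted limma p under 0.05 or by edgeR or DESeq2. Mgme1, a nuclease for mitochondrial DNA, fell from 20.9 ± 4.86 to 6.94 ± 1.21 (-1.45 ± 0.19), and Fastkd2, which handles mitochondrial RNA, from 22.8 ± 2.78 to 10.3 ± 0.756 (-1.07 ± 0.13). Polrmt, the polymerase that transcribes mitochondrial DNA, was at 16.9 ± 1.33 and 18.2 ± 2.04 and was not called (0.10 ± 0.13; limma adjusted p = 0.513).

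Of 19 regulators of respiratory genes tested, 5 fell, 4 rose and 10 were not called, with a median of -0.22. These shares were below those of all genes tested, of which 33.1% fell and 30.0% rose. The 5 that fell were Gabpb1 (-0.59 ± 0.11), Nfe2l2 (-0.53 ± 0.11), Nrf1 (-0.49 ± 0.10), Gabpb2 (-0.47 ± 0.12) and Yy1 (-0.34 ± 0.09). Nrf1, which encodes the factor whose letters were searched above, was at 33.8 ± 0.386 in fetal and 23.9 ± 2.27 in postnatal libraries. Without the 20 highest genes in the scaling, the calls of Nrf1, Gabpb2 and Yy1 were lost. The part of any of these 5 in the fall of the subunit genes was not tested. The 4 that rose were Epas1, which encodes the hypoxia-inducible factor HIF-2 alpha (2.40 ± 0.23), Tfeb, a regulator of lysosomes (1.29 ± 0.14), and the nuclear receptors Ppard (1.09 ± 0.26) and Esrrg (0.99 ± 0.35), whose call was lost under 9 of the 22 alternative analyses. Endothelial cells are a known source of Epas1, and all 5 endothelial markers in the table rose, with summed levels of 164 to 250.3 before and 368 to 613 after birth; their part in its rise was not tested. Ppargc1a, the coactivator of mitochondrial biogenesis, was at 3.29, 2.93 and 3.64 and then at 3.04, 2.44 and 2.01, with overlapping groups, and was not called (-0.30 ± 0.16; limma adjusted p = 0.146).

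Of 25 other mitochondrial proteins, among them channels, import factors and chaperones, 23 fell and 1 rose, with a median of -0.86. The chaperonin gene Hspd1 (-1.87 ± 0.13) and the prohibitin gene Phb (-1.71 ± 0.21) were lowest. Mfn2, a fusion protein of the outer membrane, rose by 0.40 ± 0.12, a call lost under 7 alternative analyses. Of 18 genes for coenzyme Q synthesis and electron entry 12 fell and 3 rose, with a median of -0.58. Coq7 (-1.55 ± 0.18) and Coq3 (-1.43 ± 0.14), enzymes of the synthesis, were lowest. Coq10a (1.58 ± 0.16) and Coq10b (1.30 ± 0.30), which encode coenzyme Q binding proteins, rose, as did Gpd2, the mitochondrial glycerol phosphate dehydrogenase (0.52 ± 0.15). With equal totals the calls of Coq10b (0.96) and Gpd2 (0.18) were lost, and that of Gpd2 also when fetal replicate 2, fetal replicate 3 or both libraries that stand apart were left out. Of 4 uncoupling and alternative exit genes tested, Ucp2 (0.58 ± 0.18) and Slc25a14 (0.82 ± 0.14), both mitochondrial carriers, rose, and Nnt, which makes NADPH from the proton gradient, fell by 0.77 ± 0.17. The Ucp2 call was lost under 6 alternative analyses: with equal totals (0.24), with the replicate block (adjusted p = 0.0550) and when fetal replicate 2 or 3 or postnatal replicate 2 or 3 was left out. That of Slc25a14 was lost with equal totals (0.53).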

How the data were processed

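Total RNA was extracted with TRIzol and RNeasy columns and made into stranded libraries after ribosomal RNA removal, per the labels' protocols. The submitters' processing notes list TopHat2 2.0.8b and edgeR 3.30.3 and state no role for either. What the sources used here do not give is the genome build, annotation, read counter and strand setting. The authors deposited 1 table that holds a normalized signal for each gene and library, and its header states no unit. In each library the deposited signal equals whole reads times a constant, and 100% of values were within 0.001 reads of a whole number. Taken as CPM, the implied library sizes match TMM factors recomputed from these reads, so the signal is called scaled CPM. Postnatal replicate 1 had the lowest factor, 0.677, against 0.992 to 1.25 in the others. Depth was 26.1 to 37.8 M reads, and 3 reads equal 0.0726 to 0.152 scaled CPM. A row without a gene name held at most 3.19e-05% of a library and was left out of the tests.

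Libraries were grouped by title, 3 fetal and 3 postnatal. The test was limma 3.58.1 (R 4.3.3) on log2(value + 1), two-sided, with a trend and the group as the only term. It covered the 12926 genes that reached 1 in 3 or more libraries, and a gene was called at a Benjamini-Hochberg adjusted p under 0.05. The planned test assumed normalized values and was kept, and the recovered reads were also tested with edgeR 4.0.16 and with DESeq2 1.42.0 as alternatives. Fold changes on this scale understate changes of low genes. Isoform ratios were tested by a two-sided exact permutation test over 4 of 9 listed pairs with both genes above the filter. The fit was tested on simulated data. The members and lists were chosen with earlier results of these data known. Named genes were the extremes of each complex, catalytic subunits, isoforms, all Mt- genes and the 2 largest changes each way of each list; Gpd2, Gabpb2, Nrf1, Yy1, Ppard, Esrrg, Ppargc1a, Ndufa13, Ndufa7, Ndufb3, Ndufa10l1 and Cox7a2l2 were named after their values were seen. Of the genes this rule picked, 1 is not reported here by name, though counts include it. The marker lists used were hormone, acinar, hepatic, mesenchymal, erythroid, pericyte, endothelial, muscle, fat and testis.

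Alternatives were pseudocounts of 0.1, 0.5 and 5, no filter, a filter value of 5, 4 scalings, the labelled week as a covariate, the replicate number as a block, a robust trend and each library left out in turn. The 2 count tools, leaving out both libraries that stand apart and scaling to the mitochondrially encoded total were chosen after seeing the data. Promoter windows and gene names came from RefSeq tables of GRCr8, not matched to the build of the reads, and the YY1 letters were shortened after a longer form had been searched.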

Additional observations from a re-analysis of the deposited data

How the results depend on the processing

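The fall of the nuclear subunit genes kept its direction under each alternative and its count within 1.5 times, with 64 to 70 genes lower when 1 library was left out and 9 to 11 of the assembly factors and other non-subunit members. The labels do not say whether replicate numbers pair the samples. Deviations of same-numbered libraries correlated at -0.207, 0.102 and -0.253, and those of other-numbered ones at -0.361 to 0.431. Because the deviations are centred within groups of 3 libraries, these values cannot settle whether a pairing exists. With the replicate number as a block 66 subunit genes, 9 assembly and other members and 0 mitochondrially encoded genes were lower, and 57.5% of all genes were called, against 63.1%. Subunit genes called higher, 0 as reported, were 1 without a filter (Cox8b), 1 with upper quartile scaling, 3 without the 20 highest genes in the scaling, 1 with DESeq2 and 0 to 1 with a library left out (Ndufa1, without postnatal replicate 2). Among assembly and other members 1 was higher without a filter (Ndufa4l2) and 1 without the 20 highest genes (Cox7a2l). Mitochondrially encoded genes called lower, 1 as reported, were 0 without a filter, 6 with equal totals, 0 with upper quartile scaling, 0 without the 20 highest genes, 5 without both libraries that stand apart, 0 with DESeq2 and 0 to 5 with a library left out; 3 were higher without the 20 highest genes. The cause of these shifts was not tested. The log2 ratio of Cox6b2 to Cox6b1 turned from -0.17 to 0.28 with a pseudocount of 5, which weighs on the low Cox6b2, and ran from -0.30 to -0.000309 with a library left out. The ratio differences of Cox4i2 to Cox4i1, Atp5mc1 to Atp5mc2 and Atp5mc3 to Atp5mc2 ran from 0.61 to 0.99, -0.28 to -0.14 and -0.44 to -0.33 with a library left out, when an exact permutation p cannot go below 0.2. Of all genes tested 4278 were lower and 3874 higher as deposited, 5075 and 1779 with equal totals, 3703 and 4552 with upper quartile scaling and 3213 and 5047 without the 20 highest genes.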
